A study of Mus musculus with 15 samples.

Results

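The genes described here encode the mitochondrial machinery that burns carbon fuels, namely pyruvate dehydrogenase and the citrate cycle, the oxidation of fatty acids, and the oxidation of branched-chain amino acids and ketone bodies. They come from a list of 48 gene symbols that was drawn up with earlier results of these data known. Shares of the members and of all genes are therefore set side by side as description only. Genes were taken from the list by a rule that used no measured difference: a gene was kept where the array held a transcript cluster naming that gene alone, and of several such clusters the brightest on average was taken. By this rule 46 of the 48 genes were measured, of 22180 genes in all. Of these, 12 belong to pyruvate dehydrogenase and the citrate cycle, 17 to fatty acid oxidation, and 17 to branched-chain and ketone body oxidation. Acsl1, which activates long-chain fatty acids, had no cluster of its own, and Cpt1b, the muscle form of the carnitine palmitoyltransferase at the outer membrane, lay only in a cluster shared with other genes, so neither was measured.

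The values come from 15 laser-microdissected lung nodules of female BALB/c mice inoculated through the tail vein with D2.A1 or D2.OR cells, a pair of mouse mammary cancer lines of the D2.HAN progression series, of which D2.A1 grows out in the lung and D2.OR enters dormancy there. Before inoculation the cells were grown either on a reconstituted basement membrane extract (3D, primed) or on plastic (2D, unprimed). The groups were D2.A1 3D spindle (2 nodules), D2.A1 3D epithelial (2 nodules), D2.A1 2D spindle (3 nodules), D2.A1 2D epithelial (3 nodules), D2.OR 3D (3 nodules) and D2.OR 2D (2 nodules, numbered 2 and 3). All D2.OR nodules carry the histology label spindle, no nodule of normal lung was included, and the age of these mice is not given in the labels. Unprimed D2.OR cells form small micro-nodules, from which the D2.OR 2D samples were cut. The nodules had been picked by eye, by morphology, from stained sections of fixed and embedded lung, and the legends of the study give 3 mice per group, so some nodules of D2.A1 must share a mouse. No label ties a nodule to a mouse. The p-values rest on the spread between nodules, pooled over the groups, and are too small where nodules of 1 mouse stand on the same side.

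As background, pyruvate dehydrogenase turns pyruvate into acetyl-CoA, which citrate synthase feeds into the citrate cycle. Fatty acids enter mitochondria through the carnitine shuttle and are shortened by a repeated sequence of dehydrogenation, hydration, a further dehydrogenation and thiolysis, and the electrons of the first step pass through the electron transfer flavoprotein. Leucine, isoleucine and valine are transaminated, decarboxylated by the branched-chain ketoacid dehydrogenase, and broken down to acetyl-CoA or succinyl-CoA. These pathways are most active in heart, muscle, liver and brown fat, and in brown fat they fuel heat production. Many of their genes respond to the nuclear receptors of the PPAR and estrogen-related families and to the coactivator Ppargc1a.

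Each value is the signal of 1 transcript cluster on 1 array on the log2 scale, as normalized by the authors with Robust Multi-array Average (RMA), so a difference of 1 is a 2-fold difference in signal. Array medians lay between 1.81 and 1.91, and detection was not called. Differences between signals near or below these medians are therefore uncertain, as for Hibch, Auh, Mccc1, Ppm1k and Ppargc1a in most nodules. The same holds for Sucla2, Slc25a20, Aldh6a1 and Pdk4 in D2.A1. Levels are compared between nodules, not between genes. Tests are those of limma on all 15 arrays with 1 mean per group, adjusted over the 22180 genes by Benjamini-Hochberg, and a gene is said to rise or fall where its adjusted p is under 0.05. The fit uses 1 estimate of spread per gene for all groups. For most members D2.OR 2D varied more than the other groups, so p-values of comparisons with it are too small. Those of comparisons without it tend to be too large for these members.

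Upstream sequences of 3 members are shown so that their start sites can be read against known motifs. The RefSeq promoter table (GRCm38.p6) held 52 windows of 42 members, each reaching from 250 bases before to 50 after the start. Acadm encodes the medium-chain acyl-CoA dehydrogenase, Etfdh the oxidoreductase that hands electrons of the flavoprotein to ubiquinone, and Hadha the alpha subunit of the trifunctional protein. The 250 bases before each start are printed 5′ to 3′ on the strand of the gene, at chr3:153944644-153944893 (minus strand) for Acadm, chr3:79628768-79629017 (minus strand) for Etfdh and chr5:30154981-30155230 (minus strand) for Hadha. Capitals mark matches to the motifs named after the sequences.
Acadm: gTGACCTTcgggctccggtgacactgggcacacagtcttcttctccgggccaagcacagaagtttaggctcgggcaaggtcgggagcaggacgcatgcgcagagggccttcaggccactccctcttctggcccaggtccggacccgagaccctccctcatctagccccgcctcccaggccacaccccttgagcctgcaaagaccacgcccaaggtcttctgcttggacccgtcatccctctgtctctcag
Etfdh: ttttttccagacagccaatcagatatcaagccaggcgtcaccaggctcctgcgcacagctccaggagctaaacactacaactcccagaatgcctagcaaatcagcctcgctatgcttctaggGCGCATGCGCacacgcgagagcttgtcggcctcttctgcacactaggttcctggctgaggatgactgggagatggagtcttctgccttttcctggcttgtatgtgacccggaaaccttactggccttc
Hadha: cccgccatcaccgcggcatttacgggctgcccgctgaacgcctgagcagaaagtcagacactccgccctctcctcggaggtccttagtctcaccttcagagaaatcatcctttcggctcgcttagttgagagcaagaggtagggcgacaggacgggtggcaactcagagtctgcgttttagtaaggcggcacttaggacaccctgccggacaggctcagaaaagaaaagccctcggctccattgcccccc

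In Acadm the capitals are the reverse complement of AAGGTCA, a core motif bound by nuclear receptors, at position -249 from the start. This letter string was searched after its longer form had given no match, and it lay in the windows of 2 members, Acadm and Ogdh, and in 4.72% of the 32851 windows of the table. In Etfdh they are the palindrome bound by NRF1, at position -128 from the start, which lay in no window of another member and in 0.971% of all windows. No window of a member held TNAAGGTCA, the extended motif of the estrogen-related receptors (1.28% of all windows), or the direct repeat bound by PPAR, which is AGGTCA given again after 1 letter of any kind (0.0396%). Both strands were searched, and every match to TNAAGGTCA is also a match to AAGGTCA. The stretch before Hadha is the shared start region of the trifunctional protein, since Hadhb, its beta subunit, starts on the plus strand of chromosome 5 with 272 bases between the 2 starts, and it held none of the 4 motifs. These matches describe letters only.

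Nodule 2 of D2.OR 2D stood apart in these genes. The mean over the 46 members was 2.81 to 3.20 in the 10 D2.A1 nodules, 3.25 to 3.59 in the 3 nodules of D2.OR 3D, and 5.84 and 3.41 in nodules 2 and 3 of D2.OR 2D. Nodule 2 held the highest signal of the 15 arrays for 43 of the 46 members, against 8.05% of all genes, the exceptions being Cpt1a, Bcat2 and Acad8. Its signal was at least 2-fold that of nodule 3 for 40 members (2.43% of all genes) and at least 8-fold for 15 (0.257%), of which 12 belong to fatty acid oxidation. The median difference between nodules 2 and 3 over the members was 2.81, with single members from -0.53 (Cpt1a) to 4.002 (Idh3a), whereas the median over all genes was 0.00. Nodule 3 lay close to the D2.OR 3D nodules instead, with a median difference from their mean of 0.002 and single members from -0.75 to 0.52. A mean of D2.OR 2D therefore stands for a pair of unlike nodules. The median member difference of every comparison with it is given with and without nodule 2. Some calls of markers and other genes are given with both nodules only. With 1 nodule left out D2.OR 2D is a single array, whose spread is borrowed from the other groups. Counts and adjusted p from such fits are therefore not those of a replicated group.

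Genes of fat cells were high in the same nodule. The mean of 9 measured markers of fat cells lay between 2.03 and 2.29 in D2.A1 and between 2.62 and 4.36 in D2.OR 3D, and was 6.52 and 4.01 in nodules 2 and 3 of D2.OR 2D. For 9 markers of brown fat the means were 1.73 to 1.91 in D2.A1, 2.72 to 3.64 in D2.OR 3D, and 5.84 and 3.48 in nodules 2 and 3 of D2.OR 2D. Ucp1, the uncoupling protein of brown fat, read at most 2.38 in D2.A1, 7.24, 6.71 and 4.59 in D2.OR 3D, and 10.33 and 6.74 in nodules 2 and 3 of D2.OR 2D. Not all such markers were high there, since Prdm16, a regulator of brown fat identity, read 1.76 to 2.33 in D2.A1 and 2.32 in nodule 2. In such bulk samples more cells of a type and more RNA per cell cannot be told apart, and the part of fat cells in the signals of the oxidation genes was not tested.

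The mean of the 4 markers of endothelium was also highest in nodule 2. It was 2.52 to 3.37 in D2.A1, 3.08 to 3.66 in D2.OR 3D, and 4.27 and 3.86 in nodules 2 and 3 of D2.OR 2D. Of these markers Pecam1 was higher in nodule 3, with 5.27 against 5.11 in nodule 2. The 3 markers of B cells averaged 1.66 to 2.12 in D2.A1, 2.89 to 4.29 in D2.OR 3D, and 3.66 and 5.14 in nodules 2 and 3 of D2.OR 2D, so that they were higher in all D2.OR nodules but highest in nodule 3. The part of endothelium and of B cells in the signals of the oxidation genes was not tested. The other marker lists were not highest in nodule 2. The 12 markers of heart muscle averaged 4.28 in nodule 2 of D2.OR 3D and at most 2.38 in every other nodule, while the members in that nodule averaged 3.37, between the other D2.OR 3D nodules. The 7 markers of skeletal muscle averaged 1.80 to 2.46 in all 15 nodules. Markers of alveolar type II cells averaged 2.69 to 4.31 in D2.A1, 4.11 to 5.70 in D2.OR 3D, and 2.56 and 2.45 in nodules 2 and 3 of D2.OR 2D. The epithelial keratins and adhesion genes used to check the labelled tumours (5 markers) averaged 2.57 to 4.05 in D2.A1, 2.96 to 3.88 in D2.OR 3D, and 2.60 and 2.51 in nodules 2 and 3 of D2.OR 2D. The 5 macrophage markers averaged 2.40 to 3.36 in D2.A1 and 2.25 to 3.19 in D2.OR, with nodule 2 of D2.OR 2D the lowest of all, and the 4 markers of alveolar type I cells 2.78 to 3.54 in D2.A1, 3.27 to 3.64 in D2.OR 3D and 2.37 in both D2.OR 2D nodules.

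**Figure D1:**
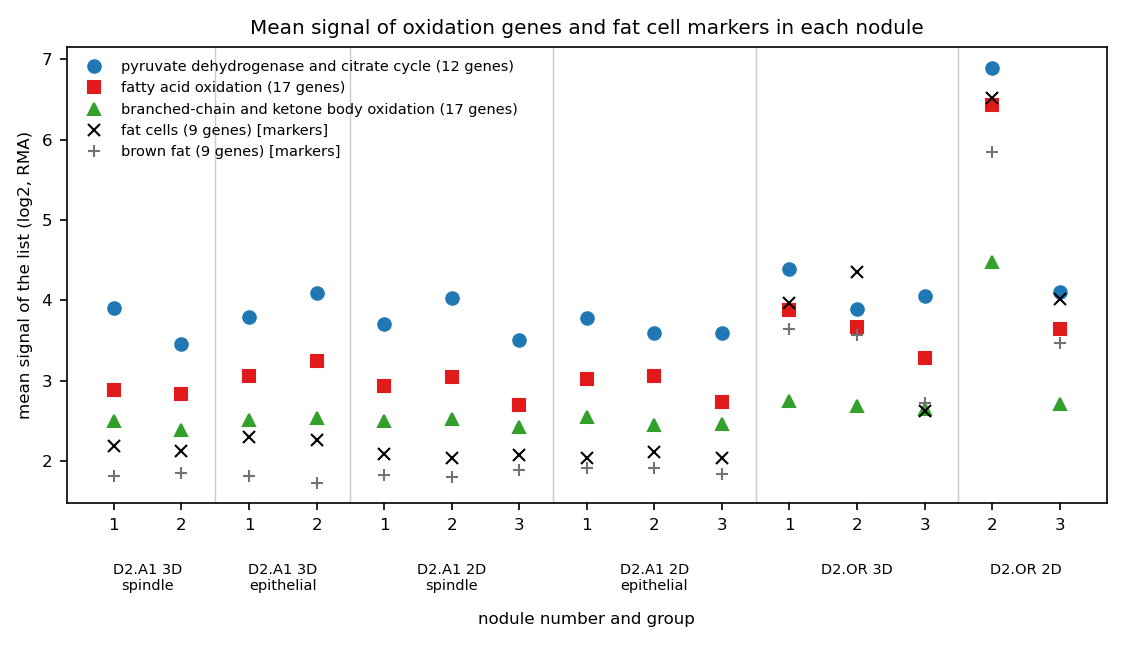
Mean log2 signal per nodule of the 3 gene groups (filled symbols) and of the fat cell and brown fat markers (crosses), by nodule number and group; the height of different lists is not comparable, only the order of nodules within a list. Nodule 2 of D2.OR 2D lies highest in all 5 lists, with 6.90 for pyruvate dehydrogenase and the citrate cycle, 6.44 for fatty acid oxidation and 4.48 for branched-chain and ketone body oxidation.

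**Figure D2:**
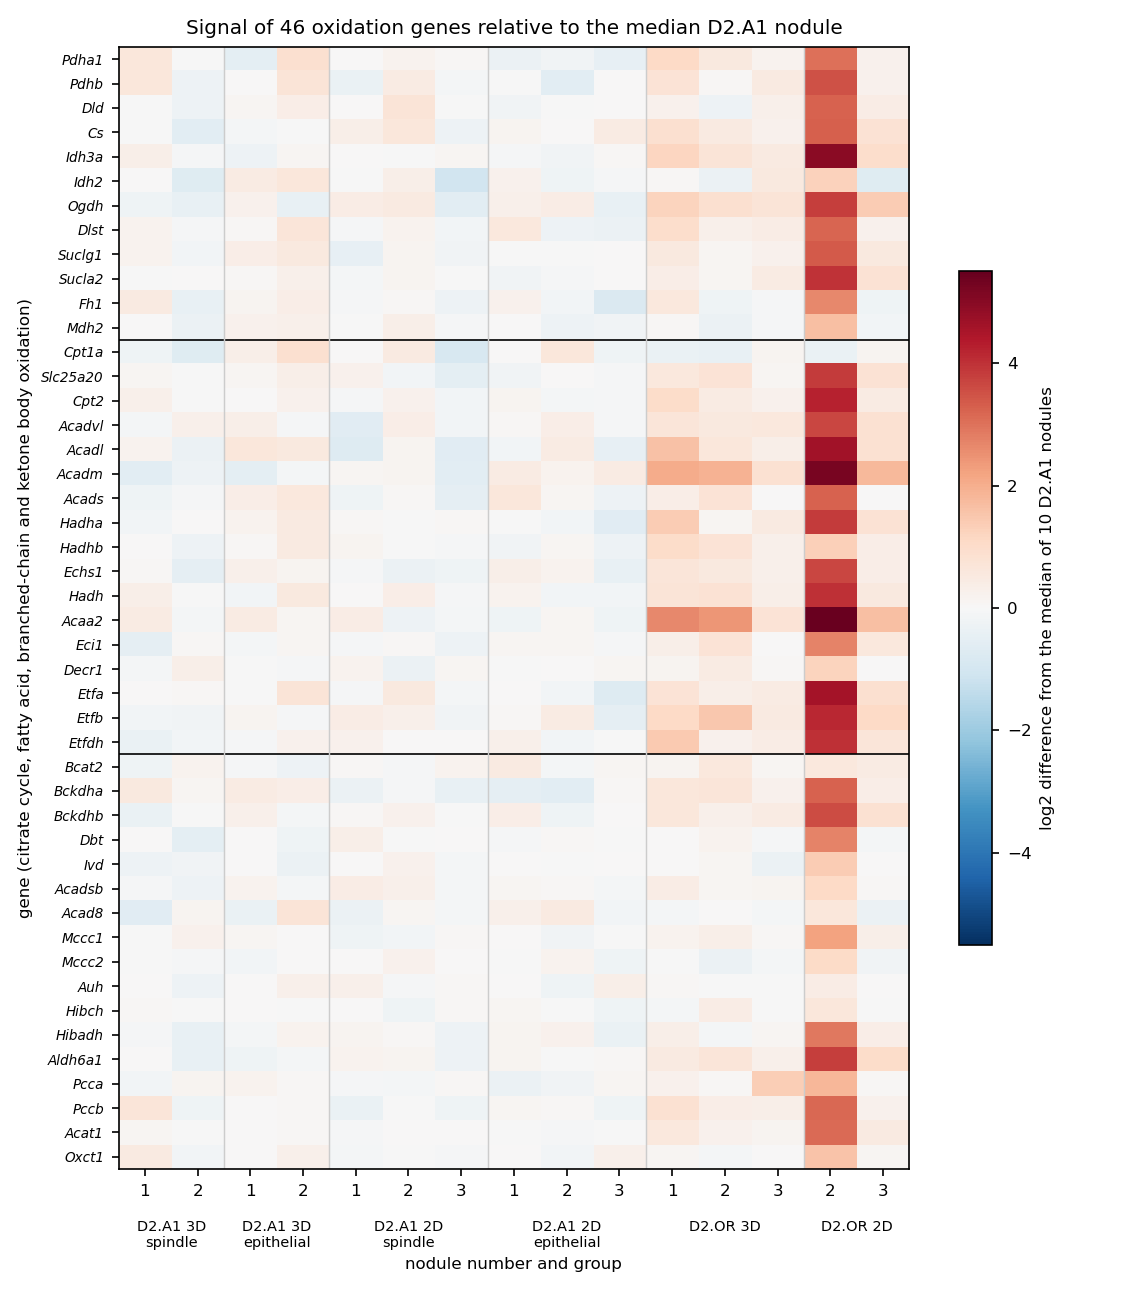
Signal of the 46 measured genes in each of the 15 nodules as the log2 difference from the median of the 10 D2.A1 nodules (red higher, blue lower), with lines between the citrate cycle, fatty acid and branched-chain groups. The column of D2.OR 2D nodule 2 is red in nearly all rows, and Acadm and Acaa2 are also raised in the other 4 D2.OR nodules.

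Among the genes of pyruvate dehydrogenase and the citrate cycle, Pdha1 encodes the catalytic alpha subunit of pyruvate dehydrogenase. It read 4.57 and 3.91 in D2.A1 3D spindle, 3.42 and 4.84 in D2.A1 3D epithelial, 3.98, 4.14 and 4.01 in D2.A1 2D spindle, and 3.61, 3.75 and 3.50 in D2.A1 2D epithelial nodules. In D2.OR it read 5.02, 4.47 and 4.13 after 3D culture, and 6.96 and 4.19 after 2D culture (nodules 2 and 3). Nodule 2 of D2.OR 2D and, by less, D2.OR 3D nodule 1 lay above all D2.A1 nodules, and the other 3 D2.OR nodules within their range.

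Cs, citrate synthase, catalyses the entry of acetyl-CoA into the cycle. Its signal was 5.31 and 4.75 in D2.A1 3D spindle, 5.21 and 5.31 in D2.A1 3D epithelial, 5.64, 5.97 and 5.04 in D2.A1 2D spindle, and 5.48, 5.36 and 5.81 in D2.A1 2D epithelial nodules. The D2.OR values were 6.23, 5.84 and 5.55 after 3D culture, and 8.62 and 6.11 after 2D culture (nodules 2 and 3). Both D2.OR 2D nodules and D2.OR 3D nodule 1 lay above all 10 D2.A1 nodules, and the other 2 D2.OR 3D nodules within their range.

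Idh3a, the catalytic subunit of the NAD-dependent isocitrate dehydrogenase, gave 2.80 and 2.42 in D2.A1 3D spindle, 2.19 and 2.59 in D2.A1 3D epithelial, 2.50, 2.48 and 2.60 in D2.A1 2D spindle, and 2.42, 2.31 and 2.57 in D2.A1 2D epithelial nodules. In D2.OR it gave 3.68, 3.21 and 2.97 after 3D culture, and 7.47 and 3.47 after 2D culture (nodules 2 and 3). All 5 D2.OR nodules lay above all 10 D2.A1 nodules. Idh2, the mitochondrial NADP-dependent isocitrate dehydrogenase, showed no such order, with 4.22 and 3.53 in D2.A1 3D spindle, 4.67 and 4.82 in D2.A1 3D epithelial, 4.19, 4.51 and 3.15 in D2.A1 2D spindle, and 4.44, 3.98 and 4.12 in D2.A1 2D epithelial nodules. For D2.OR nodules it showed 4.27, 3.89 and 4.75 after 3D culture, and 5.49 and 3.55 after 2D culture (nodules 2 and 3), so that nodule 3 of D2.OR 2D was among the low values and nodule 2 the highest.

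Ogdh, the first subunit of the 2-oxoglutarate dehydrogenase complex, measured 3.37 and 3.22 in D2.A1 3D spindle, 3.86 and 3.21 in D2.A1 3D epithelial, 4.01, 4.10 and 3.02 in D2.A1 2D spindle, and 3.88, 4.01 and 3.20 in D2.A1 2D epithelial nodules. In D2.OR nodules it measured 4.82, 4.50 and 4.33 after 3D culture, and 7.41 and 5.03 after 2D culture (nodules 2 and 3). Here again the D2.OR and D2.A1 nodules did not overlap, and both D2.OR 2D nodules lay above the 3 D2.OR 3D nodules. The later steps were high mainly in nodule 2: Sucla2, the ADP-forming succinyl-CoA synthetase subunit, read 1.80 to 2.27 in D2.A1, 2.11 to 2.44 in D2.OR 3D, and 5.98 and 2.77 in nodules 2 and 3 of D2.OR 2D. Mdh2, the mitochondrial malate dehydrogenase, read 7.73 in nodule 2 and 5.74 to 6.40 in the other 14 nodules.

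In fatty acid oxidation the member measured for the entry step behaved apart from most others. Cpt1b and Acsl1 were not measured, so this holds for Cpt1a and not for entry as a whole. Cpt1a, the widely expressed carnitine palmitoyltransferase that sets the rate of entry, read 3.34 and 2.92 in D2.A1 3D spindle, 3.90 and 4.49 in D2.A1 3D epithelial, 3.59, 4.10 and 2.70 in D2.A1 2D spindle, and 3.59, 4.21 and 3.37 in D2.A1 2D epithelial nodules. The D2.OR nodules gave 3.23, 3.16 and 3.73 after 3D culture, and 3.22 and 3.75 after 2D culture (nodules 2 and 3). Their range lay inside that of D2.A1, and nodule 2, the highest for most members, read 3.22 for Cpt1a. By contrast, the next members of the shuttle followed the common pattern: Cpt2, the carnitine palmitoyltransferase of the inner membrane, read 6.87 in nodule 2 and 2.47 to 3.61 elsewhere, and Slc25a20, the carnitine-acylcarnitine translocase, 5.89 in nodule 2 and 1.50 to 2.83 elsewhere.

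Acadm, the medium-chain acyl-CoA dehydrogenase whose upstream sequence is printed above, read 3.43 and 3.73 in D2.A1 3D spindle, 3.48 and 3.90 in D2.A1 3D epithelial, 4.10, 4.14 and 3.44 in D2.A1 2D spindle, and 4.45, 4.20 and 4.45 in D2.A1 2D epithelial nodules. In D2.OR it read 6.04, 5.89 and 4.86 after 3D culture, and 9.24 and 5.81 after 2D culture (nodules 2 and 3). The highest D2.A1 nodule, at 4.45, lay below the lowest D2.OR nodule, at 4.86. Acadl, the long-chain acyl-CoA dehydrogenase, read 3.27 and 2.76 in D2.A1 3D spindle, 3.70 and 3.60 in D2.A1 3D epithelial, 2.38, 3.21 and 2.43 in D2.A1 2D spindle, and 2.94, 3.51 and 2.62 in D2.A1 2D epithelial nodules. Its D2.OR values were 4.67, 3.71 and 3.40 after 3D culture, and 7.68 and 3.92 after 2D culture (nodules 2 and 3), of which the lowest fell within the D2.A1 range.

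Hadha, the alpha subunit of the trifunctional protein, gave 3.19 and 3.33 in D2.A1 3D spindle, 3.50 and 3.83 in D2.A1 3D epithelial, 3.38, 3.31 and 3.39 in D2.A1 2D spindle, and 3.28, 3.18 and 2.69 in D2.A1 2D epithelial nodules. In D2.OR it gave 4.70, 3.42 and 3.80 after 3D culture, and 7.15 and 4.13 after 2D culture (nodules 2 and 3). Its divergent neighbour Hadhb differed less between the nodules: it read 2.36 to 3.14 in D2.A1, 3.65, 3.39 and 2.92 in D2.OR 3D, and 3.95 and 3.00 in nodules 2 and 3 of D2.OR 2D. Thus the difference between nodules 2 and 3 was 3.02 for Hadha and 0.95 for Hadhb.

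Acaa2, the mitochondrial thiolase that ends each round, stood at 3.06 and 2.52 in D2.A1 3D spindle, 3.05 and 2.69 in D2.A1 3D epithelial, 3.02, 2.33 and 2.50 in D2.A1 2D spindle, and 2.36, 2.73 and 2.35 in D2.A1 2D epithelial nodules. In D2.OR it stood at 5.25, 5.03 and 3.38 after 3D culture, and 8.05 and 4.26 after 2D culture (nodules 2 and 3). The lines did not overlap, with the highest D2.A1 value at 3.06 and the lowest D2.OR value, that of D2.OR 3D nodule 3, at 3.38. In this nodule the fat cell markers were also the lowest of the D2.OR nodules, with a mean of 2.62. The order of the fat cell markers did not hold for all members. D2.OR 3D nodule 2 had the highest fat cell mean of its group, 4.36. Yet its mean for pyruvate dehydrogenase and the citrate cycle was the lowest of the group, with 3.90 against 4.05 in nodule 3. The part of fat cells in these values was not tested.

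Etfa and Etfb form the electron transfer flavoprotein. Etfa read 2.97 and 3.04 in D2.A1 3D spindle, 2.95 and 3.69 in D2.A1 3D epithelial, 2.90, 3.50 and 2.88 in D2.A1 2D spindle, and 2.97, 2.81 and 2.23 in D2.A1 2D epithelial nodules. In D2.OR it read 3.71, 3.30 and 3.41 after 3D culture, and 7.53 and 3.85 after 2D culture (nodules 2 and 3), and nodules 2 and 3 of D2.OR 3D lay within the D2.A1 range. Etfb read 2.48 and 2.44 in D2.A1 3D spindle, 2.81 and 2.58 in D2.A1 3D epithelial, 3.04, 2.95 and 2.44 in D2.A1 2D spindle, and 2.73, 3.11 and 2.17 in D2.A1 2D epithelial nodules. Its D2.OR values were 3.77, 4.12 and 3.14 after 3D culture, and 6.81 and 3.73 after 2D culture (nodules 2 and 3), all above those of D2.A1.

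Among the genes of branched-chain amino acids, the member of the first step also stood apart. Bcat2, the mitochondrial transaminase, read 2.27 and 2.72 in D2.A1 3D spindle, 2.43 and 2.24 in D2.A1 3D epithelial, 2.57, 2.44 and 2.69 in D2.A1 2D spindle, and 2.99, 2.41 and 2.62 in D2.A1 2D epithelial nodules. The D2.OR nodules gave 2.64, 3.09 and 2.63 after 3D culture, and 3.08 and 2.98 after 2D culture (nodules 2 and 3), of which the highest in each culture lay just above the D2.A1 range. Bckdha, the decarboxylase alpha subunit of the ketoacid dehydrogenase, read 3.59 and 3.17 in D2.A1 3D spindle, 3.48 and 3.43 in D2.A1 3D epithelial, 2.74, 3.01 and 2.65 in D2.A1 2D spindle, and 2.57, 2.47 and 3.09 in D2.A1 2D epithelial nodules. In D2.OR it reached 3.66, 3.73 and 3.31 after 3D culture, and 6.30 and 3.41 after 2D culture (nodules 2 and 3), and outside nodule 2 the lines overlapped.

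Further along, the members divided. Aldh6a1, the methylmalonate semialdehyde dehydrogenase of valine breakdown, read 1.79 to 2.37 in D2.A1, 2.67, 2.84 and 2.47 in D2.OR 3D, and 5.99 and 3.18 in nodules 2 and 3 of D2.OR 2D, with no overlap of the lines. Acat1, the thiolase of isoleucine and ketone bodies, read 2.45 to 2.65 in D2.A1, 3.09, 2.75 and 2.69 in D2.OR 3D, and 5.64 and 3.03 in nodules 2 and 3 of D2.OR 2D. Auh, the hydratase of leucine breakdown, read 1.72 to 2.32 in D2.A1 and no more than 2.40 in nodule 2, and Hibch, the hydrolase of valine breakdown, 1.60 to 1.98 in D2.A1 and 2.49 in nodule 2. Pcca, the alpha subunit of propionyl-CoA carboxylase, was also high in D2.OR 3D nodule 3, with 3.73, beside 4.20 in D2.OR 2D nodule 2 and 2.07 to 2.61 in the other 13 nodules.

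**Figure D3:**
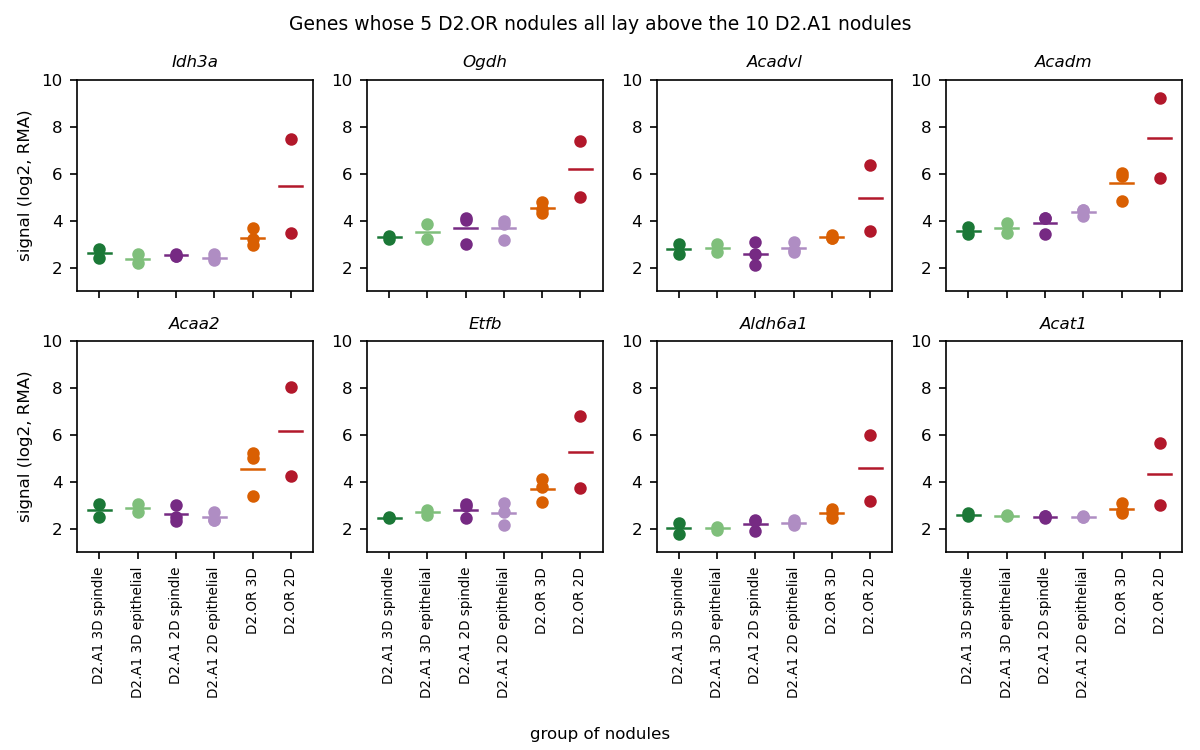
Log2 signal of the 8 members whose 5 D2.OR nodules all lay above the 10 D2.A1 nodules, by group; points are nodules and bars group means. The genes were picked for this lack of overlap, and the step is widest in Acadm, where the D2.A1 nodules read 3.43 to 4.45 and the D2.OR 3D nodules 4.86 to 6.04.

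These 8 members are Idh3a, Ogdh, Acadvl, Acadm, Acaa2, Etfb, Aldh6a1 and Acat1. They make up 8 of the 46 members, whereas 1.17% of all genes showed all 5 D2.OR nodules above all 10 D2.A1 nodules. The same 8 members were found when nodule 2 of D2.OR 2D was left aside (1.46% of all genes). This outcome was nearly fixed in advance. Leaving a D2.OR nodule aside cannot remove a member, and only Cpt1a and Acad8 could have been added. Nodule 3 of D2.OR 2D alone lay above all D2.A1 nodules in 22 members (15% of all genes), and nodule 2 in 44 (13.3%).

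The comparison of unprimed nodules asks how D2.A1 and D2.OR nodules differ without prior 3D culture. In D2.A1 2D nodules 18 of the 46 members fell relative to D2.OR 2D, and none rose (3.2% of all genes fell and 0.996% rose). Of these, 9 of 17 belonged to fatty acid oxidation (Slc25a20, Acadvl, Acadl, Acadm, Hadha, Acaa2, Eci1, Etfa and Etfb), 4 of 12 to pyruvate dehydrogenase and the citrate cycle (Idh3a, Ogdh, Suclg1 and Sucla2), and 5 of 17 to branched-chain and ketone body oxidation (Bckdha, Bckdhb, Mccc1, Aldh6a1 and Acat1). The difference was below 0 for 45 members, with a median of -1.78, against 0.03 over all genes (43.7% of which lay below 0), and the sides did not overlap in 27 members (17.4% of all genes). Cpt1a was the member above 0, at 0.11 (95% confidence interval -0.62 to 0.84).

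The largest differences were those of Acaa2 and Acadm. Acaa2 averaged 2.55 ± 0.27 in D2.A1 2D (SD, n = 6) and 6.16 ± 2.68 in D2.OR 2D (SD, n = 2), a difference of -3.60 (standard error 0.74, adjusted p = 0.016, limma). The standard error is pooled over all groups and understates the uncertainty of the D2.OR 2D mean, here and for the genes that follow. Acadm averaged 4.13 ± 0.37 in D2.A1 2D and 7.52 ± 2.43 in D2.OR 2D (SD, n = 6 and 2), a difference of -3.39 (standard error 0.63, adjusted p = 0.0097, limma). Idh3a, Acadl and Etfa followed with -2.99, -2.96 and -2.81 (limma adjusted p = 0.028, 0.034 and 0.030). Among the enzymes of entry and rate, Ogdh (-2.52), Hadha (-2.44) and Bckdha (-2.10) fell, with limma adjusted p of 0.012, 0.030 and 0.039, whereas Cs (-1.82), Pdha1 (-1.74) and Bcat2 (-0.41) did not pass, with 0.055, 0.11 and 0.27.

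These calls rest to a large part on nodule 2. Without it 4 members fell (4.66% of all genes), namely Acadm by 1.68, Idh3a by 0.99, Aldh6a1 by 0.95 and Sucla2 by 0.82 (limma adjusted p = 0.024, 0.032, 0.019 and 0.0084), and the median member difference was -0.42. Without nodule 3 instead, 40 members fell (3.82% of all genes), and the median was -3.19. Leaving out any 1 of the 6 D2.A1 2D nodules gave 5 to 11 calls in place of 18. In a limma fit of these groups alone 1 member fell, and in a one-way analysis of variance on them 0 did after adjustment, with 35 and 29 members at an unadjusted p under 0.05. In the same comparison 6 of 9 fat cell markers and 4 of 9 brown fat markers fell, among them Fabp4 and Ucp1, as did all 3 B cell markers (Cd79a, Cd79b and Ms4a1) and 2 of 4 endothelial markers (Pecam1 and Kdr), whereas 2 of 8 markers of alveolar type II cells (Sftpc and Sftpb) and 2 of 4 of type I cells (Ager and Aqp5) rose. Without nodule 2 of D2.OR 2D 3 fat cell, 3 brown fat, 3 B cell and 2 endothelial markers fell. The part of these markers in the calls was not tested.

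**Figure D4:**
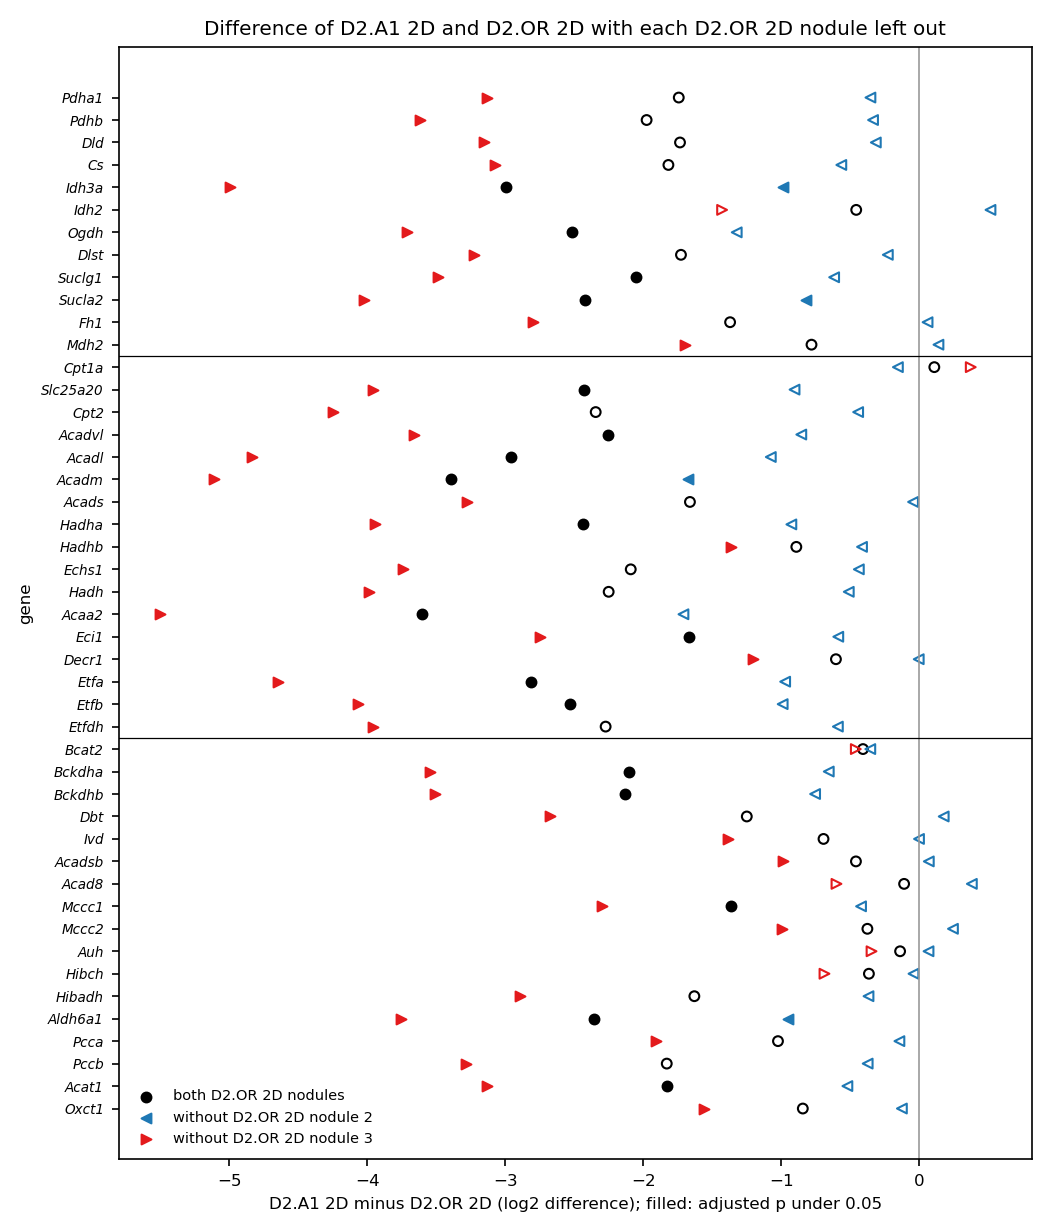
Difference of D2.A1 2D and D2.OR 2D (log2) for the 46 members with both D2.OR 2D nodules (black circles), without nodule 2 (blue triangles) and without nodule 3 (red triangles); filled symbols have an adjusted p under 0.05. Acadm is the fatty acid oxidation gene that passed in all 3 fits, while Cpt1a did not pass in any.

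Primed nodules compare the lines without D2.OR 2D. None of the 46 members passed when D2.A1 3D was set against D2.OR 3D (0.252% of all genes fell and 0.194% rose), and 5 were lower with an unadjusted p under 0.05 (5.87% of all genes). The difference was below 0 for 38 members (49.4% of all genes), with a median of -0.32, against 0.002 over all genes. The sides did not overlap in 9 members (8.47% of all genes), which are the 8 named above and Cs. Acadm had the largest difference, averaging 3.63 ± 0.22 in D2.A1 3D (SD, n = 4) and 5.60 ± 0.65 in D2.OR 3D (SD, n = 3), a difference of -1.96 (95% confidence interval -3.25 to -0.68) that did not pass (limma adjusted p = 0.22). Acaa2 averaged 2.83 ± 0.27 in D2.A1 3D and 4.55 ± 1.02 in D2.OR 3D (SD, n = 4 and 3), and its difference of -1.72 did not pass either (limma adjusted p = 0.40). The fit shares its estimate of spread with D2.OR 2D, and without nodule 2 of that group Acadm passed with the same difference (limma adjusted p = 0.0056), as the single member to do so (0.789% of all genes fell in that fit). Of the fat markers Ucp1, Cox8b and Fabp4 fell in this comparison, as did Cd79a of B cells, Napsa of alveolar type II cells and Adgre1 of macrophages, and their part in the differences of the members was not tested.

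All D2.A1 groups were also set against both D2.OR groups, a comparison added after the values had been seen. Here 12 members fell and none rose (3.67% of all genes fell and 1.52% rose), with a median difference of -1.05, against 0.02 over all genes. They comprised 7 of 17 genes of fatty acid oxidation (Acadvl, Acadm, Hadha, Hadhb, Acaa2, Eci1 and Etfb), 3 of 12 of pyruvate dehydrogenase and the citrate cycle (Cs, Idh3a and Ogdh), and 2 of 17 of branched-chain and ketone body oxidation (Bckdhb and Aldh6a1). Acadm fell by 2.68 (standard error 0.43, adjusted p = 0.0035), Acaa2 by 2.66 (standard error 0.50, adjusted p = 0.0087), Idh3a by 1.89 (standard error 0.47, adjusted p = 0.037), Ogdh by 1.83 (standard error 0.34, adjusted p = 0.0073) and Etfb by 1.81 (standard error 0.39, adjusted p = 0.019), all from limma. Hadhb, whose nodules differed little, fell by 0.75 (limma adjusted p = 0.020).

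Without nodule 2 of D2.OR 2D 11 members fell (5.3% of all genes), with a median difference of -0.37, and Acadm (-1.82, adjusted p = 0.00047), Acaa2 (-1.71, adjusted p = 0.0067), Ogdh (-1.23, adjusted p = 0.0091) and Etfb (-1.04, adjusted p = 0.014, all limma) were among them. Cs, Hadha, Hadhb and Eci1 no longer passed, and Sucla2, Slc25a20 and Acat1 did. Without nodule 3 instead, D2.OR 2D was nodule 2 alone, and the calls of that fit are not those of a replicated group. Acadm and Acaa2 passed in all 23 alternative settings run for this comparison, with adjusted p of at most 0.039 and 0.036, and Ogdh and Etfb in 22 of them. Leaving out a single D2.A1 nodule left 4 to 7 calls, as did leaving out D2.OR 3D nodule 1 (4 calls) or nodule 3 (6 calls). With array weights 25 members fell, and in a one-way analysis of variance 3 did. Of the markers, 6 of 9 for fat cells, 4 of 9 for brown fat, 3 of 3 for B cells and 2 of 4 for endothelium fell as well, the numbers being equal without nodule 2. The part of these markers in the calls was not tested.

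Priming of D2.OR cells was tested by setting D2.OR 3D beside D2.OR 2D. No member passed (0.203% of all genes fell and 0.0721% rose), although the difference was below 0 for all 46 members (47.7% of all genes) and 28 had an unadjusted p under 0.05 (5.24% of all genes in this direction). The median difference was -1.37, against 0.01 over all genes, and the sides did not overlap in 12 members (19.4% of all genes). The largest differences, which did not pass, were those of Etfa, which averaged 3.47 ± 0.21 in D2.OR 3D and 5.69 ± 2.60 in D2.OR 2D (SD, n = 3 and 2; difference -2.22, limma adjusted p = 0.32), and Idh3a, which averaged 3.29 ± 0.36 in D2.OR 3D and 5.47 ± 2.83 in D2.OR 2D (difference -2.19, limma adjusted p = 0.36, same n). Without nodule 2 the median difference was -0.002, whereas without nodule 3 it was -2.77, with D2.OR 2D a single array in each of these fits. The sign of the group difference thus holds for nodule 2 and not for nodule 3. In the same comparison none of the 18 measured markers of fat cells and brown fat passed, while Sftpc and Sftpb, the surfactant proteins of alveolar type II cells, rose by 6.74 and 4.49 (limma adjusted p = 0.017 and 0.015). The endothelial marker Pecam1 fell by 1.035 (limma adjusted p = 0.032) and the alveolar type I marker Aqp5 rose. The part of these markers in the differences was not tested.

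Priming of D2.A1 cells was not accompanied by a change of these genes that the fit over all groups could detect. None of the 46 members passed between D2.A1 3D and D2.A1 2D, none had an unadjusted p under 0.05, and 0.00451% of all genes rose while 0% fell. These counts and shares do not stand on equal terms. The D2.OR 2D nodules, which enter the spread, differed at least 2-fold in 40 members, against 2.43% of all genes. Differences ran from -0.50 to 0.67, with a median of 0.09. Bckdha had the largest, averaging 3.42 ± 0.18 in D2.A1 3D and 2.75 ± 0.25 in D2.A1 2D (SD, n = 4 and 6), with no overlap of the nodules (difference 0.67, 95% confidence interval -0.21 to 1.54, limma adjusted p = 0.99). It is the single member without overlap, against 1.19% of all genes. Acadm came next at -0.50 (95% confidence interval -1.58 to 0.59, limma adjusted p = 1). The spread behind these intervals is pooled with D2.OR 2D. There Bckdha had an SD of 2.044, against 0.039 to 0.335 in the D2.A1 groups. The intervals are therefore wider than the D2.A1 nodules alone would make them. In this fit a change of up to about these limits cannot be told from none.

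Spindle and epithelial nodules of D2.A1, taken from the pleural surface and the parenchyma, did not separate in these genes either. No member passed (0% of all genes did), and 1 was lower in spindle nodules with an unadjusted p under 0.05 (4.36% of all genes). The median difference of spindle and epithelial nodules was -0.04, with single members from -0.66 to 0.27, and the nodules overlapped in all members (they did not in 1.38% of all genes). The fit weights 3D and 2D nodules of each morphology equally, so its differences are not exactly those of the means over nodules. Its spread is again pooled with D2.OR 2D, which widens it for most members. Cpt1a averaged 3.33 ± 0.56 in spindle and 3.91 ± 0.45 in epithelial nodules (SD, n = 5 each; fitted difference -0.66, 95% confidence interval -1.24 to -0.08, limma adjusted p = 0.57), and Idh2 averaged 3.92 ± 0.56 in spindle and 4.41 ± 0.36 in epithelial nodules (fitted difference -0.55, limma adjusted p = 0.76, same n). Thus Cpt1a, which did not follow the D2.OR pattern, had the largest difference of the members between the morphologies, though it did not pass.

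The interaction of priming and cell line, the 3D minus 2D difference of D2.A1 minus that of D2.OR, was above 0 for all 46 members, with a median of 1.43, against -0.01 over all genes. None passed (0.0586% of all genes passed in this direction), and 17 had an unadjusted p under 0.05 (4.54% of all genes in this direction). Etfa (2.50, standard error 0.89, limma adjusted p = 0.47) and Acadl (2.36, standard error 0.96, limma adjusted p = 0.55) had the largest values. This contrast holds the same D2.OR 2D nodules as the comparison within D2.OR: without nodule 2 its median over the members was 0.005 and none passed (1.57% of all genes did), and without nodule 3 it was 2.87 and 36 members passed (1.9% of all genes).

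Other genes of these pathways, taken from lists of enzymes, transporters and regulators beside the members, were read in D2.A1 2D against D2.OR 2D, where 3.2% of all genes fell and 0.996% rose (4.66% and 0.627% without nodule 2 of D2.OR 2D). Of 20 further genes of pyruvate handling and the citrate cycle 5 fell, namely Idh1, Mdh1, Sdha, Pdk2 and Pdk4, and the median difference was -1.17. Without nodule 2 Pdk4 was the 1 gene to fall, with a median of -0.31. Pdk4, the kinase that switches pyruvate dehydrogenase off when fat is burned, fell by 4.60 (standard error 0.77, limma adjusted p = 0.0053), and by 2.81 without nodule 2 (limma adjusted p = 0.031). It read 1.72 to 2.26 in D2.A1, against 4.73, 4.85 and 2.30 in D2.OR 3D and 8.44 and 4.86 in nodules 2 and 3 of D2.OR 2D. All D2.OR nodules thus lay above D2.A1, the lowest by a small margin.

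Of 23 further genes of fatty acid oxidation and transport 2 fell, Cd36, a fatty acid transporter of the cell surface, by 3.40, and Acacb, the acetyl-CoA carboxylase that makes the inhibitor of carnitine palmitoyltransferase, by 2.49 (limma adjusted p = 0.018 and 0.027). Without nodule 2 none of the 23 passed, with differences of -1.55 for Cd36 and -0.93 for Acacb (limma adjusted p = 0.12 and 0.16). Of 15 further genes listed with the branched-chain pathway Ppm1k, the phosphatase that activates the ketoacid dehydrogenase, Mmut, the methylmalonyl-CoA mutase, and Ech1 fell, and Slc7a5, which carries leucine into cells, rose by 1.07 (limma adjusted p = 0.016). Ech1 is an enoyl-CoA isomerase that acts on unsaturated fatty acids, so its fall is not one of a branched-chain enzyme. Mlycd was counted both in this list and among the 23 genes above. Without nodule 2 Ppm1k alone of the 15 fell and none rose. Slc7a5 lost its call without nodule 2 and without nodule 3, with differences of 1.09 and 1.04 (limma adjusted p = 0.059 and 0.085). It read 3.32 to 4.11 in D2.A1, against 2.73, 2.54 and 3.28 in D2.OR 3D and 2.64 and 2.58 in D2.OR 2D. Ppm1k fell by 0.72 (limma adjusted p = 0.00058) and was also the single gene of these lists to pass between D2.OR 3D and D2.OR 2D, with a fall of 0.67 (limma adjusted p = 0.016). Its values were 1.40 to 1.77 in D2.A1, 1.79, 1.76 and 1.73 in D2.OR 3D, and 2.41 and 2.46 in D2.OR 2D, so that here nodules 2 and 3 were alike. The D2.A1 and D2.OR 3D values lay below the array medians, so the size of these differences is uncertain.

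None of 5 further ketone body genes passed, while without nodule 2 Slc16a1, a transporter of lactate and ketone bodies, rose by 1.54 (limma adjusted p = 0.043). Of 15 regulators 3 fell, Pparg, the nuclear receptor of fat cells, by 2.05, Ppargc1b by 1.26 and Sirt3, a mitochondrial deacetylase, by 0.76 (limma adjusted p = 0.048, 0.017 and 0.018). Without nodule 2 none of the 15 passed, and the differences were -0.57 for Pparg, -0.64 for Ppargc1b and -0.48 for Sirt3 (limma adjusted p = 0.32, 0.16 and 0.21). Pparg read 1.47 to 1.81 in D2.A1, 2.78, 2.06 and 1.93 in D2.OR 3D, and 5.21 and 2.24 in nodules 2 and 3 of D2.OR 2D. Ppargc1a, the coactivator known for inducing oxidation genes, and Ppara, the PPAR of fatty acid oxidation, did not pass. Ppargc1a read 1.37 to 1.66 in D2.A1, 1.32 to 1.54 in D2.OR 3D, and 2.18 and 1.75 in nodules 2 and 3 of D2.OR 2D, below the array medians except in nodule 2. Ppara read 3.73 in nodule 2 and 1.61 to 2.12 in the other 14 nodules.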

How the data were processed

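RNA of 15 laser-microdissected lung nodules was hybridized to 1 Affymetrix Mouse Gene 2.0 ST array each, and each nodule was grouped by its sample title. The authors normalized the probe intensities by RMA, and the table they deposited gives, for each nodule, log2 values of 41345 transcript clusters, with the log base taken from the method. The submitters' processing notes list the Affymetrix Expression Console and Transcriptome Analysis Console, without versions. Because RMA puts all arrays on 1 scale, it removes a shift common to most genes. Weak signals are compressed. The platform annotation gave 23521 clusters 1 gene symbol, 1820 several and 16004 none. One cluster per gene, that with the highest mean, left 22180 genes, and no filter on weak signals was applied. Of the members, Aldh6a1 alone had 2 such clusters.

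The fit used limma 3.58.1 under R 4.3.3 (9 residual and 3.20 prior degrees of freedom) at an adjusted p of 0.05. It was tested on simulated data. Leaving out a D2.OR 2D nodule leaves that side with 1 array, which is then assumed to vary like the other groups. The number of arrays limits the precision. The deviations of same-numbered nodules correlated between -0.45 and 0.23 over 31 pairs. This cannot decide whether equal nodule numbers pair the nodules, since in groups of 2 nodules the deviations mirror each other. The highest correlation between 2 arrays was 0.969, so no array was taken for a copy of another.

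The members, gene lists and comparisons were chosen with earlier results of these data known. All members may be named. Values in every array are given for the 5 members that differed most, in either direction, of those passing a comparison, for the 2 that differed most where none passed, and for Cs, Ogdh, Pdha1, Cpt1a, Hadha, Bckdha and Bcat2. Other genes of the pathways are named where they passed. Members given beyond this rule were chosen after their values were seen, as were Prdm16, Ppara and Ppargc1a. Alternatives were a filter on weak genes, all transcript clusters, other variance priors, array weights, cyclic loess, a fit of the groups compared only, the replicate number as a block, a one-way analysis of variance, and each nodule left out in turn.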

Additional observations from a re-analysis of the deposited data

How the results depend on the processing

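In D2.A1 2D against D2.OR 2D 18 members fell, but 1 did in a fit of only these groups and 0 in a one-way analysis of variance on them (35 and 29 of the members then had an unadjusted p under 0.05). With each nodule left out in turn the count ran from 4 to 40, and the median member difference from -3.189 to -0.418. In D2.A1 3D against D2.OR 3D 1 member passed with array weights, and 0 or 1 with a nodule left out. In all D2.A1 against all D2.OR 25 members fell with array weights and 3 in a one-way analysis of variance, and with a nodule left out the count ran from 4 to 40 and the median from -1.757 to -0.369. Between D2.OR 3D and D2.OR 2D the count with a nodule left out ran from 0 to 37 and the median from -2.765 to -0.002. The interaction of priming and cell line gave 0 to 36 members and medians from 0.005 to 2.872 in the same way. These extremes came from leaving out nodule 2 or nodule 3 of D2.OR 2D, except the lowest count of all D2.A1 against all D2.OR, which came without nodule 1 of D2.A1 3D epithelial or of D2.OR 3D. Without nodule 2 or nodule 3 the D2.OR 2D group is 1 array, so counts from those fits are not those of a replicated group. No median named here changed sign under these alternatives, but medians of -0.002 and 0.005 amount to no difference. Single members did change sign, as Acaa2 did between D2.OR 3D and D2.OR 2D (up to 0.293) and in the interaction (down to -0.012). A fit of only the groups compared could not be run for the last comparison and for that of all groups, where it is the main fit.

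With the replicate number as a block 20 members fell in D2.A1 2D against D2.OR 2D, with a median of -1.873, and 17 in all D2.A1 against all D2.OR; the other comparisons gave 0 as without the block. Whether the numbers pair the nodules is not known, so this fit is given for completeness. The consensus correlation of nodules with 1 number was 0.001. Array weights ran from 0.325 to 3.11. No detection calls were used, so weak signals limit what can be said of Hibch, Auh, Mccc1, Ppm1k and Ppargc1a, among others. In D2.A1 they also limit what can be said of Sucla2, Slc25a20, Aldh6a1 and Pdk4.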
